A study of Homo sapiens with 4 samples.

Results

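The 5 loci described here are CTGF, CYR61, AMOTL2 and ANKRD1, which are commonly used as readouts of the YAP/TEAD pathway, and WNT3, a Wnt ligand gene. Every ATAC-seq peak within 50 kb of each gene on hg19 was taken, whatever its score. Peaks of the 4 libraries that overlapped or touched were joined into regions, which gave 55 regions near the 5 genes out of 87966 in the genome. The libraries came from feeder-free cultures of H1, an established line of human embryonic stem cells. ATAC-seq maps open chromatin through the insertion of sequencing adapters by a transposase. The control library was from cells left in N2B27 growth medium with bFGF. The other libraries were from cells given Activin A at 25 ng/ml, Wnt3a at 25 ng/ml, or Activin A and Wnt3a at 25 ng/ml each, harvested after 6 h. The treated cells were in a B27 medium for which N2 and bFGF are not listed, so the effect of a ligand and that of the medium cannot be told apart in any comparison with control. Each group had 1 library, so there is no replicate check and no test between groups, and every difference below is between single libraries.

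YAP is a transcriptional co-activator that the Hippo kinase cascade keeps out of the nucleus. In the nucleus it binds DNA through the TEAD transcription factors, whose core recognition sequence is GGAATG. CTGF (now named CCN2) and CYR61 (CCN1) encode secreted matricellular proteins of the CCN family, AMOTL2 encodes a junctional scaffold protein that binds and restrains YAP, and ANKRD1 encodes an ankyrin repeat protein best known from muscle. WNT3 is the ligand gene that helps pluripotent cells leave for the primitive streak, and YAP has been described as a repressor of it in human embryonic stem cells. Activin A signals through SMAD2 and SMAD3, and Wnt3a stabilises beta-catenin.

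The 250 bases before the RefSeq start (GRCh38.p14) are shown for CTGF and ANKRD1, the members with TEAD letters there, and for WNT3, whose start was under a peak in some lists and not in others. All 3 are read 5′ to 3′ on the gene's own strand, the reverse strand of each chromosome, and capitals mark GGAATG or its reverse complement CATTCC.
CTGF: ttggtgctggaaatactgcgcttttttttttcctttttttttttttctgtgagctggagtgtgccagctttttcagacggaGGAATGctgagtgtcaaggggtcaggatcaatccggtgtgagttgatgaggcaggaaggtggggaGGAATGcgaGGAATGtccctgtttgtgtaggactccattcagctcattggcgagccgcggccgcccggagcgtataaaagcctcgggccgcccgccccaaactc
ANKRD1: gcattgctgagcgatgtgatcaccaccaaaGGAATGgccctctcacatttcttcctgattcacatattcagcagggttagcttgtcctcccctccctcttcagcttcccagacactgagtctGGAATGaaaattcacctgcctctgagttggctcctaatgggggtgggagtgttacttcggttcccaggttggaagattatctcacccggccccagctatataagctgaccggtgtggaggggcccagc
WNT3: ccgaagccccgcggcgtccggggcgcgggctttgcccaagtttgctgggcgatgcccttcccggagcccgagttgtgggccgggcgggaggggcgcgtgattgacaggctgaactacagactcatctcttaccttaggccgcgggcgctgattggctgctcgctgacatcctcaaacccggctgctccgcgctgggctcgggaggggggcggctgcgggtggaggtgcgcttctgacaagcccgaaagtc
The CTGF stretch held 3 TEAD matches, at 169 to 164, 104 to 99 and 95 to 90 bases before the start. In ANKRD1 there were 2, at 220 to 215 and 128 to 123 bases before the start. The AMOTL2 and WNT3 stretches held none, and 4 of the 5 genes had an entry in the RefSeq promoter table (CYR61 had none). Of all 35116 promoters in that table, in which a gene with several starts is listed several times, 11.9% held at least 1 match in the same 250 bases, 0.940% at least 2 and 0.0826% at least 3. The AP-1 motif TGANTCA, which is its own reverse complement, was found once, in ANKRD1 at 195 to 189 bases before the start, clear of the TEAD matches, against 6.57% of all promoters. Neither the TCF/LEF motif ATCAAAG, with CTTTGAT as its other strand, nor the FOXH1 motif AATCCACA, with TGTGGATT as its other strand, was found in any of the 4 stretches, against 2.26% and 0.709% of all promoters. A match is a run of letters and not a measured binding site. CTGF is 3202 bases long in the hg19 coordinates used here and 3197 in the GRCh38.p14 table, and ANKRD1 is 9177 and 8992 bases long, so the printed bases cannot be placed to the base on the hg19 peaks.

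The control list held 26223 peaks, the Activin A list 75585, the Wnt3a list 21078 and the combined list 58382. The depth behind each list is not given in the sources used here. Each peak carries a score that is the authors' own and was used only to rank peaks within a list. The percentile of a peak is its place by score in its own list, where 100 is the top. Percentiles of lists of such different lengths are levels within each list and show no change by themselves. To set ranks side by side, each region was also ranked among the 13016 regions that had a peak in all 4 lists, which is the same set in every library.

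**Figure D1:**
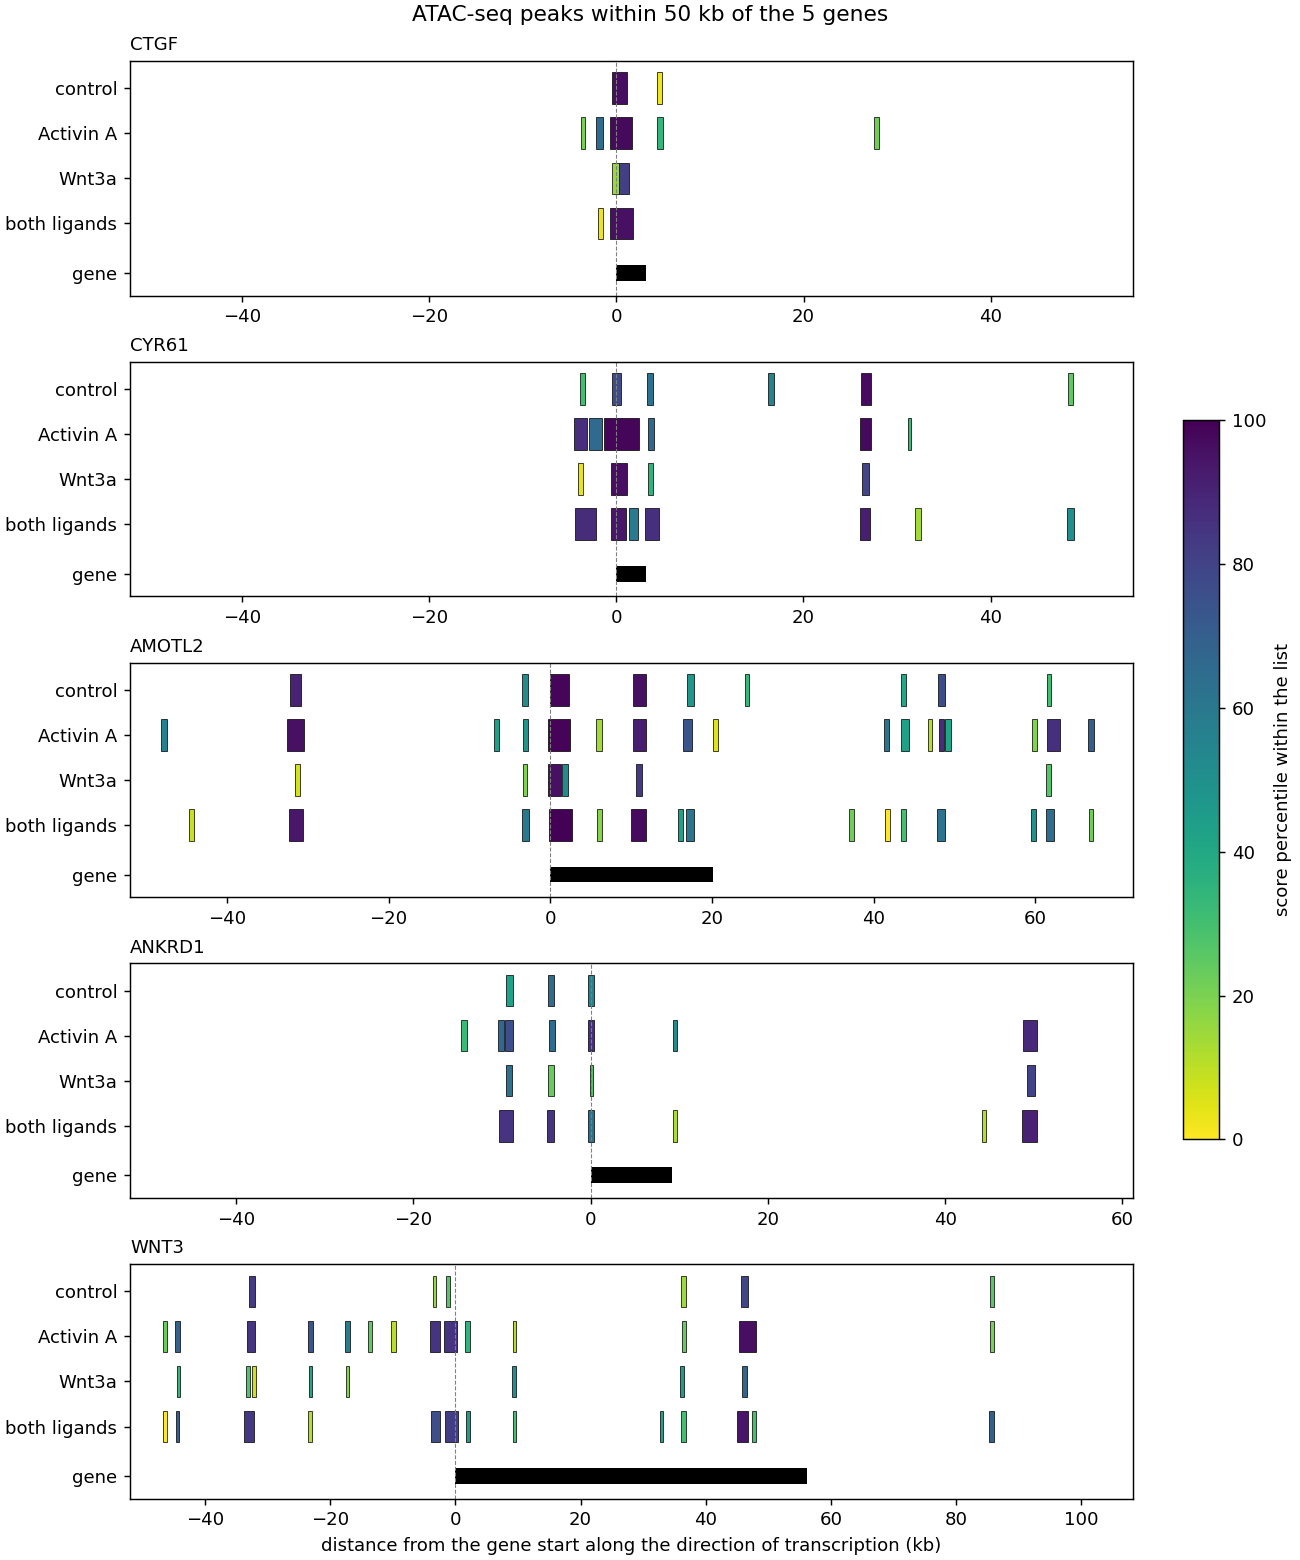
Peaks of the 4 libraries (rows) around each of the 5 genes, by distance in kb from the gene start along the direction of transcription; boxes span the peaks, their colour gives the score percentile within the list, and the black bar is the gene. A peak lay over the start of CTGF, CYR61, AMOTL2 and ANKRD1 in all 4 lists, and over the start of WNT3 only in the lists with Activin A.

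In the full lists, more regions near the 5 genes were found with Activin A or both ligands than in control or with Wnt3a. With each list cut to its 21078 best-scoring peaks the order turned, with 23 regions in control, 21 with Wnt3a and 18 each with Activin A and both. In the full lists control had a peak in 26 of the 55 regions, Activin A in 46, Wnt3a in 21 and the combined treatment in 41. These numbers are 1.77, 0.808 and 1.58 times the control number for Activin A, Wnt3a and both, whereas the numbers of regions over the whole genome were 2.95, 0.799 and 2.26 times control. AMOTL2 had the most regions, 20 in a window of 120.1 kb, followed by WNT3 with 15 in 156.3 kb, CYR61 with 8, ANKRD1 with 7 and CTGF with 5. Of the 55 regions, 5 lay over a gene start, 10 within a gene or over its end, 19 upstream and 21 downstream. A region with a peak in all 4 lists was more frequent here, 16 of 55 (29.1%, exact 95% interval 17.6 to 42.9), than among all regions (14.8%). Of these 16, 4 lay over a gene start. Regions near other genes were not compared, so the higher share is not shown to be particular to these loci. Intervals cover counting error only, and regions of the same locus are not independent of each other.

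Of the regions near the 5 genes, 23 of 46 in the Activin A list (50.0%, 34.9 to 65.1) had no control peak, against 70.0% over the genome. With both ligands 18 of 41 (43.9%, 28.5 to 60.3) had none, against 62.5%, and with Wnt3a 5 of 21 (23.8%, 8.22 to 47.2), against 33.1%. Control regions without a treated peak numbered 3 of 26 with Activin A (11.5%, against 11.5% over the genome), 3 of 26 with both (11.5%, against 15.2%) and 10 of 26 with Wnt3a (38.5%, against 46.5%). The balance of gains and losses turned when each list was cut to its 21078 best-scoring peaks. Activin A then had 3 gained regions of 18 (genome 32.2%) and 8 lost of 23 (30.2%), the combined treatment also 3 of 18 (32.9%) and 8 of 23 (30.9%), and Wnt3a 6 of 21 (39.0%) and 8 of 23 (39.9%). The larger number of gains near these genes with Activin A and with both therefore held for the full lists and not for lists of equal length.

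Few of the gains were among high-scoring peaks. In the top 25% of their list, 1 of 16 Activin A regions (6.25%, against 22.1% over the genome), 1 of 6 Wnt3a regions (16.7%, against 5.12%) and 1 of 15 combined regions (6.67%, against 15.2%) had no control peak. It was the same region each time, at 92630721 to 92632321 on chromosome 10, about 49.5 kb beyond the ANKRD1 start. Its percentile was 88.7 with Activin A, 80.2 with Wnt3a and 90.7 with both. RefSeq (GRCh38.p14) lists RPP30, which encodes a subunit of ribonuclease P, as a neighbour of ANKRD1 within 50 kb, and whether this region belongs to RPP30 could not be read on hg19.

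CTGF, on chromosome 6 at 132269317 to 132272518, had a high-ranking region over its start in every library. The region spanned 132270766 to 132273250. Its best peak was at percentile 96.5 in control, 97.6 with Activin A, 81.4 with Wnt3a and 95.9 with both. Among the regions found in all 4 lists the percentiles were 93.1, 86.1, 71.3 and 82.1 in the same order. On that common scale control was highest and Wnt3a lowest, with differences from control of -6.93 points with Activin A, -21.7 with Wnt3a and -10.9 with both. Peaks covered 1669 bp of the region in control, 2357 bp with Activin A, 1824 bp with Wnt3a and 2485 bp with both. The 250 bases before the gene start lay wholly under a peak in all 4 lists. With Wnt3a the region was split into a peak of 1070 bp that began 328 bp inside the gene and a peak of 754 bp over the start, and the latter ranked only at percentile 15.0.

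The CTGF window held 4 other regions, none of them in the top 25% of a list. A region beginning 1394 bp upstream of the start had a peak with Activin A (percentile 65.6) and with both (2.36). A region 4.62 kb downstream of the start, just beyond the gene, had a peak in control (percentile 2.04) and with Activin A (33.8). The remaining 2 regions, 3.58 kb upstream and 27.8 kb downstream, were found with Activin A only, at percentiles 21.1 and 21.9. Wnt3a had no peak in the CTGF window outside the gene start region. RefSeq lists no protein-coding neighbour of CTGF within 50 kb.

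**Figure D2:**
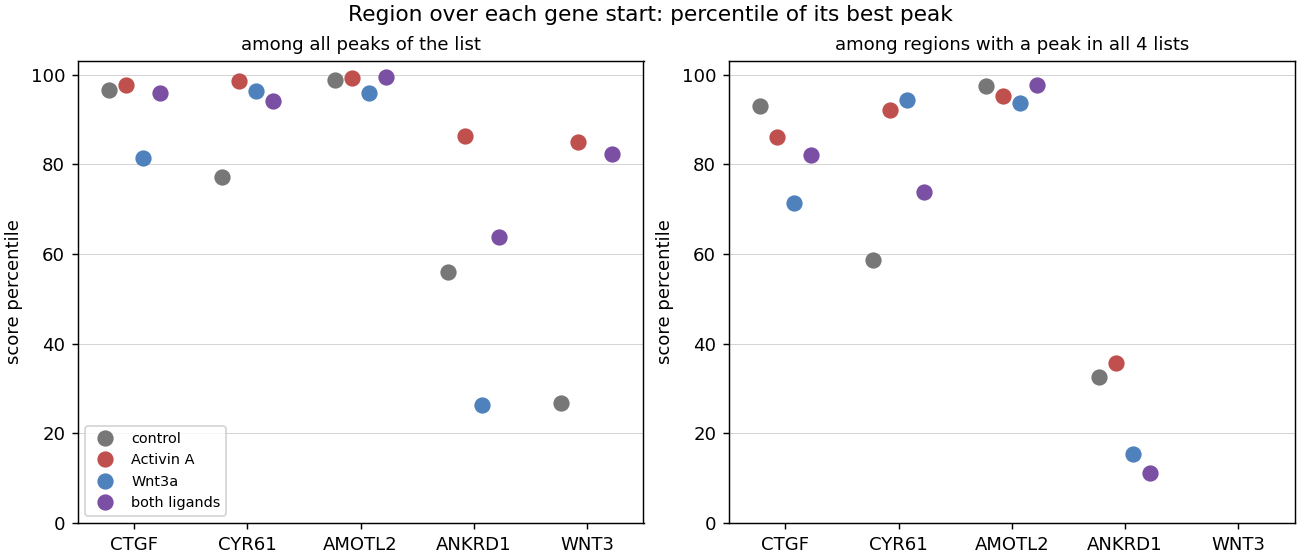
Score percentile of the best peak in the region over each gene start, by library (colours), among all peaks of the list (left) and among the 13016 regions with a peak in all 4 lists (right); each point is 1 library. WNT3 has no point with Wnt3a and none on the right, and its control point is a peak that began 864 bp upstream of the start. CYR61 is above its control point in all 3 treated libraries on both scales, with control at 58.6 on the right.

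CYR61, on chromosome 1 at 86046444 to 86049648, ranked higher over its start in every treated library than in control. The region spanned 86045129 to 86048818, and its best peak was at percentile 77.2 in control, 98.6 with Activin A, 96.4 with Wnt3a and 94.0 with both. Among the regions in all 4 lists it stood at 58.6 in control, 92.1 with Activin A, 94.3 with Wnt3a and 73.8 with both. The differences from control were 33.6, 35.8 and 15.3 points. It was the only one of the 16 member regions in all 4 lists that was higher by at least 10 points with every treatment, which 13.7% of all such regions were. The combined treatment did not reach the rank of either ligand alone. Peaks covered 931 bp of the region in control, 3690 bp with Activin A, 1697 bp with Wnt3a and 2553 bp with both. With both ligands this was 2 peaks, of 1562 bp over the start and 991 bp inside the gene (percentile 59.2). The Activin A peak reached from 1315 bp upstream of the start to 2374 bp inside the gene, whereas the control peak ended 488 bp inside it.

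The CYR61 locus had 3 further regions present in all 4 lists. The region centred 3.02 kb upstream of the start was at percentile 30.3 in control, 86.6 with Activin A, 3.58 with Wnt3a and 87.6 with both. On the common scale it stood at 13.4 in control, 36.8 with Activin A, 2.18 with Wnt3a and 50.8 with both, so both libraries with Activin A were above control and Wnt3a was below. Its covered length was 577 bp in control, 584 bp with Wnt3a, 2809 bp with Activin A and 2249 bp with both. RefSeq lists DDAH1, a dimethylarginine hydrolase gene, as the protein-coding neighbour within 50 kb, and the region was not assigned to either gene.

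The region 26.6 kb downstream of the CYR61 start was the strongest of the locus in control, at percentile 97.0, with 97.4 with Activin A, 79.1 with Wnt3a and 91.4 with both. On the common scale it stood at 94.2 in control, 85.3 with Activin A, 68.0 with Wnt3a and 63.8 with both, so control was the highest here and the lowest over the gene start. The region at the 3′ end of the gene stood at 39.3 in control, 7.08 with Activin A, 21.7 with Wnt3a and 45.8 with both. Of the remaining 4 regions, all downstream, 1 had a peak in control only (percentile 56.1), 1 in control and with both, 1 with Activin A only and 1 with both only.

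AMOTL2, on chromosome 3 at 134074187 to 134094259, had the highest-ranking start region of the 5 genes in 3 of the 4 lists. The region at 134091575 to 134094584 was at percentile 98.7 in control, 99.2 with Activin A, 95.9 with Wnt3a and 99.5 with both. With Wnt3a the CYR61 start region was slightly higher, at 96.4. On the common scale the AMOTL2 start region stood at 97.4, 95.1, 93.6 and 97.6, within 4 points of control in every treated library. Peaks covered 2314 bp in control, 2741 bp with Activin A, 2421 bp with Wnt3a and 2883 bp with both. With Wnt3a this was 2 peaks, of 1686 bp over the start and 735 bp inside the gene (percentile 51.6). The control peak reached only 52 bp upstream of the start, against 270 bp with Activin A, 325 bp with Wnt3a and 198 bp with both.

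Away from the start, AMOTL2 had a region that ranked high in 3 libraries and low with Wnt3a. The region centred 31.5 kb upstream, at 134124739 to 134126876, was at percentile 90.4 in control, 95.9 with Activin A, 6.52 with Wnt3a and 94.0 with both. On the common scale it stood at 81.1 in control, 76.5 with Activin A, 3.91 with Wnt3a and 74.0 with both. The Wnt3a difference from control, -77.2 points, was the largest in size among the 16 member regions in any library. Its Wnt3a peak was 570 bp wide, against 1399 bp in control. The region 10.9 kb inside the gene stood at 91.8 in control, 58.7 with Activin A, 74.2 with Wnt3a and 87.6 with both.

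The remaining AMOTL2 regions differed in the lists in which they were found. Control, Activin A and the combined treatment shared 3 regions that had no Wnt3a peak, at 17.1 kb, 43.8 kb and 48.7 kb from the start. Activin A and the combined treatment shared 4 more, found in neither of the other lists, with percentiles from 14.0 to 70.4 with Activin A and from 0.308 to 49.2 with both. Activin A alone had 4 of the 20 AMOTL2 regions (against 30.1% of all regions), the combined treatment alone 3 (12.4%) and control alone 1 (2.55%). Over the genome, 8.43% of regions were in every list but Wnt3a. Those found in the Activin A and combined lists and in neither of the others made up 21.9%. The region 3.07 kb upstream was in all 4 lists and stood on the common scale at 28.1 in control, 2.16 with Activin A, 11.3 with Wnt3a and 8.49 with both, below control in every treated library. The region 62.2 kb downstream was also in all 4 lists and stood at 13.1, 34.9, 15.8 and 11.9 in the same order, with Activin A alone well above the rest. No region of the AMOTL2 window was found with Wnt3a only.

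**Figure D3:**
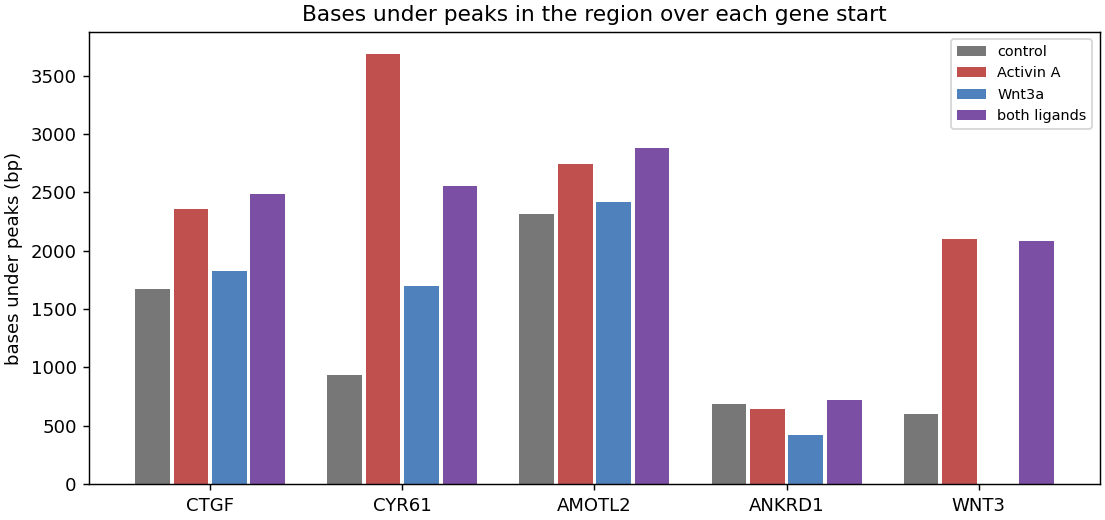
Bases covered by peaks (bp) in the region over each gene start, by library (bars start at 0; 1 library per bar, no error). No Wnt3a bar is drawn at WNT3 because that list has no peak there, and the CYR61 bar rises from 931 bp in control to 3690 bp with Activin A. The WNT3 control bar is a peak that began 864 bp upstream of the start.

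ANKRD1, on chromosome 10 at 92671857 to 92681033, had the narrowest start region of the 5 genes in each treated library, among those with a peak there. The region at 92680649 to 92681395 was at percentile 56.1 in control, 86.2 with Activin A, 26.2 with Wnt3a and 63.8 with both. On the common scale it stood at 32.5 in control, 35.6 with Activin A, 15.4 with Wnt3a and 11.2 with both. The rank with both ligands was thus above control in the full list and below it on the common scale. By score the peak held place 21151 in the combined list, just outside its 21078 best. Peak width was 689 bp in control, 643 bp with Activin A, 421 bp with Wnt3a and 720 bp with both. The 250 bases before the hg19 start were wholly under the peak in 3 lists, and 124 of them were with Wnt3a.

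A pair of upstream regions at ANKRD1 was also present in all 4 lists. The region 9.58 kb upstream stood on the common scale at 21.0 in control, 14.8 with Activin A, 47.0 with Wnt3a and 42.5 with both, so the libraries with Wnt3a were above control. The region 4.48 kb upstream stood at 42.5 in control, 6.03 with Activin A, 13.6 with Wnt3a and 42.9 with both. The order of the libraries thus differed among the 3 ANKRD1 regions that all lists shared. The other regions, beside the distal one described above, were found with Activin A only (14.3 kb upstream, percentile 32.3), with both only (44.4 kb downstream, 11.6) and in the Activin A and combined lists (9.53 kb downstream, 51.7 and 12.8).

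WNT3, on chromosome 17 at 44839872 to 44896126, was the member whose gene start was under a peak in some lists only. The start lay under a peak of 2102 bp with Activin A and of 2080 bp with both, at percentiles 84.9 and 82.3. In control the nearest peak began 864 bp upstream, was 599 bp wide and ranked at percentile 26.8. With Wnt3a the nearest peak was 9026 bp away, inside the gene, and the region over the start had no peak, as was true of 46.5% of all control regions. All 250 bases before the start were under a peak with Activin A or both ligands, and none were in the other lists.

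Because Wnt3a lacked it, the region over the WNT3 start was ranked among the 20428 regions in the control, Activin A and combined lists. That set was chosen after the data were seen. The region stood at 18.6 in control, 50.2 with Activin A and 54.1 with both. Its control value is that of the peak beginning 864 bp upstream, which did not cover the start. A second region centred 3.23 kb upstream had the same lists, at 10.5 in control, 49.9 with Activin A and 42.4 with both, and covered 536 bp, 1671 bp and 1344 bp. The region 46.5 kb inside the gene stood at 73.4, 85.7 and 83.6. These 3 regions and the CYR61 regions over the start and 3.02 kb upstream were the 5 of 22 member regions (22.7%) that were higher by at least 10 points in both libraries with Activin A, against 20.5% of all 20428. Taken by library, 6 of 22 were higher (27.3%, against 29.6%) and 8 lower (36.4%, against 31.6%) with Activin A, and 7 were higher (31.8%, against 29.5%) and 7 lower (31.8%, against 31.3%) with both ligands. None of those 5 was at CTGF, AMOTL2 or ANKRD1, where the start regions differed from control by -4.44, -1.47 and 7.33 points with Activin A and by -7.08, 0.127 and -21.0 points with both.

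Upstream of WNT3 the libraries with a ligand had peaks that control lacked, most of them low in rank. Over the whole WNT3 window 8 of 14 Activin A regions had no control peak, against 70.0% over the genome. The same held for 6 of 12 regions with both ligands (genome 62.5%) and 4 of 7 with Wnt3a (33.1%). Closer to the gene than the region 32.8 kb upstream, 4 regions had no control peak. Of these, 2 were found with Activin A only (percentiles 10.6 and 24.3), 1 with Activin A and Wnt3a (58.4 and 18.1), and 1 with all treatments (74.1 with Activin A, 40.3 with Wnt3a and 11.2 with both). Further regions gained in all 3 treatments lay 44.4 kb upstream (68.9, 33.4 and 70.8) and 9.40 kb inside the gene (11.8, 51.3 and 29.9). With the ANKRD1 distal region these make 4 of 53 regions with a treated peak (7.55%) that were gained in all treatments, against 5.38% over the genome. The region 32.8 kb upstream stood on the common scale at 67.4 in control, 30.3 with Activin A, 16.2 with Wnt3a and 39.8 with both. The region 36.3 kb inside the gene stood at 6.35, 0.584, 29.9 and 1.70 in the same order, low in every library but Wnt3a. The other 4 regions were not found with Wnt3a. They were shared by control, Activin A and both ligands (85.7 kb from the start, percentiles 25.8, 20.5 and 69.7), by Activin A and both ligands (1.92 kb inside the gene, 35.0 and 46.4, and 46.4 kb upstream, 23.4 and 0.728), or found with both ligands only (32.9 kb inside the gene, 42.3). RefSeq lists WNT9B, another Wnt ligand gene, NSF and LRRC37A2 as protein-coding neighbours of WNT3 within 50 kb. None of these regions was assigned to those genes.

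**Figure D4:**
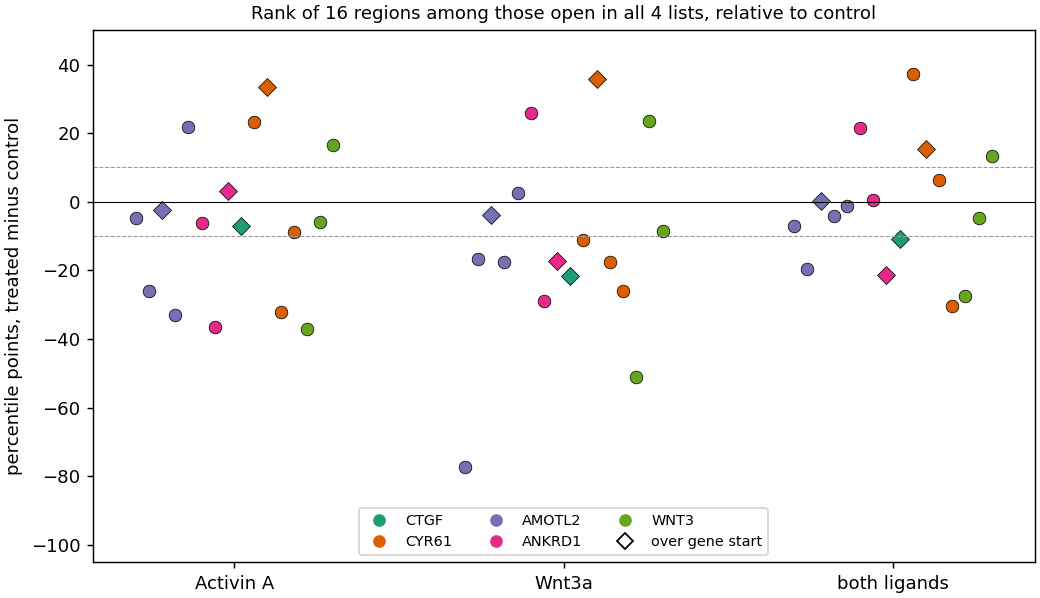
Difference from control, in percentile points, of the 16 member regions with a peak in all 4 lists, ranked among all 13016 such regions, for each treated library; colours give the gene, diamonds the regions over a gene start, and dashed lines 10 points either way. With Wnt3a most points lie below 0, the lowest at -77.2 points, while the CYR61 start lies above 0 in all 3.

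Across the 16 regions of the common scale, Wnt3a had more ranks below control than the genome did. With Wnt3a 10 of 16 (62.5%, 35.4 to 84.8) were lower by at least 10 points, against 33.0% of all 13016, and 3 were higher by as much (18.8%, against 33.7%). The median difference from control was -16.9 points with Wnt3a, where that of all regions was 0.102. With Activin A 5 of 16 were lower (31.3%, against 31.4%) and 4 higher (25.0%, against 29.8%), and with both 5 were lower (31.3%, against 30.9%) and 4 higher (25.0%, against 29.3%), shares close to those of the genome. All treated libraries were compared with the same control library. Peaks covered at least 1.5 times the control length in 6 of 16 regions with Activin A (37.5%, against 42.0%), 1 with Wnt3a (6.25%, against 6.38%) and 7 with both (43.8%, against 43.3%). They covered at most the control length divided by 1.5 in 4 of 16 regions with Wnt3a (25.0%, against 21.4%) and in none with Activin A (genome 0.807%) or with both ligands (0.791%).

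The treated libraries, which shared a medium, were set against each other. Of the 41 member regions of the combined list 7 had no Activin A peak (17.1%, against 21.0% over the genome), and of the 46 Activin A regions 12 had no combined peak (26.1%, against 39.4%). All 21 Wnt3a regions had an Activin A peak (0 lacking it, which allows up to 16.1%, against 6.02% over the genome), and 1 of the 21 had no combined peak (4.76%, against 9.27%). In the reverse direction 25 of 46 Activin A regions (54.3%, against 74.6%) and 21 of 41 combined regions (51.2%, against 67.9%) had no Wnt3a peak. On the common scale 5 of 16 regions were higher by at least 10 points with both ligands than with Activin A alone (31.3%, against 24.9%) and 4 were lower (25.0%, against 25.5%). Among the start regions, CYR61 and ANKRD1 were in the lower group.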

How the data were processed

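ATAC-seq peak lists of 4 H1 libraries, 1 per group by the labels, were used as deposited. The submitters' processing notes name Bowtie2 2.2.2, CASAVA 1.8 and the build hg19. Peak names are in the style of MACS. The caller's settings, duplicate removal, read shifting and depth are not given in the sources used here, and each can change which weak peaks pass. Peak scores are values deposited by the authors, at least 50.03, and was used only for ranks within a list. Peaks overlapping by 1 base or touching were merged. A region near a gene was gained if it had a treated and no control peak, and lost in the reverse case. Members and lists were chosen with earlier results of these data known. The 5 genes and the distance of 50 kb were given. The regions singled out in the text, by a rule of this work, are those over gene starts and those of highest percentile at each locus, and the other regions are accounted for beside them. Gene positions are those given with the rule. Strands came from RefSeq, except that of CYR61, which is general knowledge. Other genes of the pathway and markers of the cell type need hg19 gene positions and were not analysed here. Coordinates count from 1. Shares have exact (Clopper-Pearson) 95% intervals. The merging was tested on the control list itself, with some peaks removed and isolated peaks planted. That check did not cover the joining of partly overlapping peaks. Python 3.11.15, numpy 2.4.6, pandas 2.3.3, scipy 1.17.1 and matplotlib 3.10.9 were used.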

Additional observations from a re-analysis of the deposited data

How the results depend on the processing

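The number of regions near the 5 genes was recomputed in other windows, for lists of equal length, for the top 50% of scores and with other definitions of a shared peak. Counts within 1.5 times the first value were taken as unmoved. All counts stayed so in a window of 100 kb and when absence meant no peak within 1 kb. In a window of 25 kb the combined list had 27 regions, and 15, 3 and 10 were gained with Activin A, Wnt3a and both. At equal list length control had 23 regions, Wnt3a 21, and Activin A and the combined list 18 each, with 3 gained and 8 lost in each of the latter. In the top 50% of scores the lists held 14 regions in control, 27 with Activin A, 9 with Wnt3a and 23 with both, with 15, 3 and 10 gained and 1 lost with both. Requiring an overlap of 50% of each peak, which counts peaks, gave 9 lost with Activin A, 11 gained with Wnt3a and 8 lost with both. That overlap rule is stricter and counts peaks in place of regions, while the smaller window, equal length and top 50% take in fewer peaks. Beyond this construction the cause was not tested. Percentiles over gene starts left their counting interval in 45 of 49 recomputed values, since in those each scale ranks another set. The 4 that stayed were the Wnt3a values at equal list length. They could not change, because the Wnt3a list set that length and was not cut. At equal list length the WNT3 start region stood at 8.94 in control, 46.0 with Activin A and 51.0 with both. Its control value is that of the peak beginning 864 bp upstream, which did not cover the start. The CYR61 start region stood at 71.7 in control, 95.1 with Activin A, 96.4 with Wnt3a and 83.4 with both. The ranking among regions in the control, Activin A and combined lists was chosen after seeing the data. Depth is unknown for every list, so the absence of a weak peak may depend on it. No paired analysis was possible because 1 library stood for each group.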

Other observations

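The nearest regions on either side of the 50 kb limit show how the choice of window acts. The outermost regions taken lay from 24.3 kb (CTGF) to 47.4 kb (AMOTL2) from the gene, and the nearest regions left out from 53.0 kb (CYR61) to 73.8 kb (AMOTL2). The region left out at CYR61 had a peak in all 4 lists, with a highest percentile of 90.0, and the one at ANKRD1, 53.5 kb away, had a peak in 3 lists, with 79.1.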
